A study of Mus musculus with 9 samples.

Results

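The immunoproteasome and the loading of peptides onto MHC class I molecules were examined through 10 genes: Psmb8, Psmb9, Psmb10, Psme1, Psme2, Tap1, Tap2, Tapbp, B2m and Nlrc5. Every probe whose array annotation gives 1 of these symbols was taken, which made 16 of the 45281 probes on the array. All 10 genes were measured. Of the 16 probes, 15 were detected (detection p-value under 0.05) on at least 3 of 9 arrays and were tested, and another B2m probe, detected on 2 arrays, was not. A gene is represented by its tested probe with the highest mean, and its other probes are given beside it.

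RNA came from primary microglia (brain-resident macrophages) of the cortex; the donors were C57BL/6J mouse pups between 1 and 5 days old and wild type for the cannabinoid receptor 2 gene (CB2+/+). One group of 3 arrays carried cells with no stimulus, for which the labels give no culture time. Another group of 3 carried cells given lipopolysaccharide (LPS), a bacterial cell wall component, together with interferon-gamma (IFNγ) at 20 ng/ml for 16 h; LPS is listed at 100 with an incomplete unit, so its dose is not known here. The last group of 3 carried cells given interleukin-4 (IL-4), which drives alternative activation of macrophages, at 100 U/ml for 48 h, so the stimulated groups differ in time as well as in agent. The labels do not say whether replicates are separate cultures, and the p-values therefore measure only the spread between these samples, which may be technical.

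Cells display fragments of their own proteins on class I molecules. The proteasome cuts proteins into peptides, the TAP transporter carries the peptides into the endoplasmic reticulum, and tapasin holds the empty class I heavy chain with β2-microglobulin at the transporter until a peptide binds. IFNγ is known to switch the proteasome to its inducible catalytic subunits and to raise Nlrc5, the transactivator of class I genes, and microglia are known to display little class I until they are activated.

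The promoters of the 10 genes were read for 3 short motifs bound by factors of the interferon and LPS pathways. RefSeq promoters (GRCm38.p6) were found for 8 of the 10 genes, not for Tap2 and Nlrc5, and the 250 bases before each start were searched on both strands. The motifs were GAAANNGAAA for interferon regulatory factors (IRF), TTCNNNGAA for the gamma-activated site (GAS) and the NF-kB consensus. Of all 32851 promoters in the table, 2.98% held the IRF motif, 7.02% the GAS motif and 7.25% the NF-kB motif in the same window. The IRF motif was found for 1 member, B2m, the GAS motif for 1, Psmb8, the NF-kB motif for 1, again B2m, and 6 members had none of the 3. The share of all promoters with none of the 3 was not counted, but each motif was absent from most of them. Nothing is therefore read from the 6 members without a match. The stretches with a match are printed below with the matched letters in capitals, followed by the stretch between the starts of Psmb9 and Tap1, which are transcribed away from each other on chromosome 17 beside Psmb8 and Tap2. In B2m the IRF match lies 139 to 130 bases before the start and the NF-kB match, which reads on the opposite strand, 126 to 117 bases before it. The Psmb8 match reads as GAS on both strands and lies 97 to 89 bases before the start. The 225 bases shared by Psmb9 and Tap1 hold no match and therefore no capitals. A match is a description of the letters and not evidence of binding. The lack of a match covers only these letters in these 250 bases and does not show that a gene has no such site.
B2m, chr2:122147437-122147686, plus strand: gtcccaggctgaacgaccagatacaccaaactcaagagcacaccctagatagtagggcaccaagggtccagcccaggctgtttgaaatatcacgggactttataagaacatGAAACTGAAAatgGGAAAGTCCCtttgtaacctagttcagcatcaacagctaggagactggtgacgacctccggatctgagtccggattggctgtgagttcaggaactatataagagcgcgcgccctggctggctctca
Psmb8, chr17:34197945-34198194, plus strand: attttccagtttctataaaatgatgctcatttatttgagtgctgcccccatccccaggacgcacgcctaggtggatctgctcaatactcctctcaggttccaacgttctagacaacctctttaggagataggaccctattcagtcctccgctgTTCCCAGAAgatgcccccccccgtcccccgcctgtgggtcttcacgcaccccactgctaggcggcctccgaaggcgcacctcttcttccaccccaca
Psmb9 to Tap1, chr17:34187331-34187555, plus strand: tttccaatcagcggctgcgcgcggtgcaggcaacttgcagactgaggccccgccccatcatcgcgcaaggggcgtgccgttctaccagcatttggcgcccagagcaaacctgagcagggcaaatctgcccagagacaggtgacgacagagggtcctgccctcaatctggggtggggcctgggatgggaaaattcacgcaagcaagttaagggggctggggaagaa

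The depth of signal was similar on 8 arrays, with mean intensities of 310.9 to 378.5 and 14475 to 16435 detected probes. LPS/IFNγ replicate 2 stood apart: its mean intensity was 112, it detected 6208 probes, and its normalized values correlated with those of the other LPS/IFNγ arrays at r = 0.765 and 0.761 across probes, against 0.980 between these. Its lowest detected probe lay at 7.34 on the normalized log2 scale, against 4.74 to 4.92 on the other arrays. Results are therefore given with and without this array, called the weak array below. All 9 microglia and macrophage markers on the array were detected, with mean log2 levels per array of 9.62 to 10.40 without stimulus, 8.08 to 8.37 with LPS/IFNγ and 9.24 to 9.36 with IL-4. Of markers of other cells, 3 of 7 astrocyte, 4 of 7 oligodendrocyte lineage, 2 of 6 neuronal, 1 of 8 endothelial, mural and fibroblast, 1 of 6 lymphocyte and neutrophil and 0 of 4 dendritic cell markers were detected on at least 3 arrays. The astrocyte list averaged 4.49 to 4.92, 4.96 to 5.39 and 4.54 to 5.85 in the same order of groups, and the endothelial, mural and fibroblast list 4.54 to 4.74, 4.77 to 5.02 and 4.76 to 5.65. The lymphocyte and neutrophil list averaged 4.46 to 4.73, 4.78 to 5.35 and 4.34 to 4.46, so that it was highest with LPS/IFNγ and the groups did not overlap. Its 1 detected marker, S100a8, which neutrophils and also activated myeloid cells make, measured 5.83, 4.88 and 6.32 without stimulus, 7.40, 7.62 and 6.67 with LPS/IFNγ and 4.58, 4.32 and 4.27, not detected, with IL-4. The other 5 markers of that list averaged 4.35 to 4.41 without stimulus and 4.39 to 4.90 with LPS/IFNγ. The oligodendrocyte lineage list averaged 5.21 to 5.43, 4.75 to 5.36 and 5.15 to 5.28 in the same order of groups. The detected markers were Slc1a3, Aldh1l1 and Gja1 of astrocytes and Mbp, Olig1, Pdgfra and Cspg4 of the oligodendrocyte lineage. Rbfox3 and Syp of neurons and Pecam1 of the endothelial list were detected as well. Aqp4, S100b, Tubb3, Snap25, Mog, Sox10, Cldn5, Cd3d and Ms4a1 were among the markers not detected on any array. In these bulk samples fewer cells of a type and less RNA per cell cannot be told apart, and the part of other cells in the results was not tested.

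The first comparison, of LPS/IFNγ with unstimulated cells, asks how the class I machinery responds to an inflammatory stimulus. Of the 10 genes 7 rose and 0 fell: the transactivator Nlrc5 and both subunits of the peptide transporter, Tap1 and Tap2, rose most, followed by tapasin (Tapbp), the catalytic subunits Psmb9 and Psmb10 and the activator subunit Psme1. Psmb8, Psme2 and B2m did not pass the test over all 9 arrays. Among all 16895 probes tested, 5.33% were higher and 10.4% lower in this comparison (limma, Benjamini-Hochberg adjusted p under 0.05). The median log2 difference of the 10 genes was 1.78, against −0.22 over the 9391 genes measured. Without the weak array 9 of the 10 genes rose, all but B2m, where 14.6% of all probes were higher. All levels below are normalized log2 intensities in the order of replicates 1, 2 and 3, and the weak array is the second LPS/IFNγ value. Where the weak array lies above the unstimulated ones, it does so after normalization only. Its deposited intensities were lower, as for Nlrc5 at 201.87 against 350.67 to 390.91 without stimulus.

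**Figure D1:**
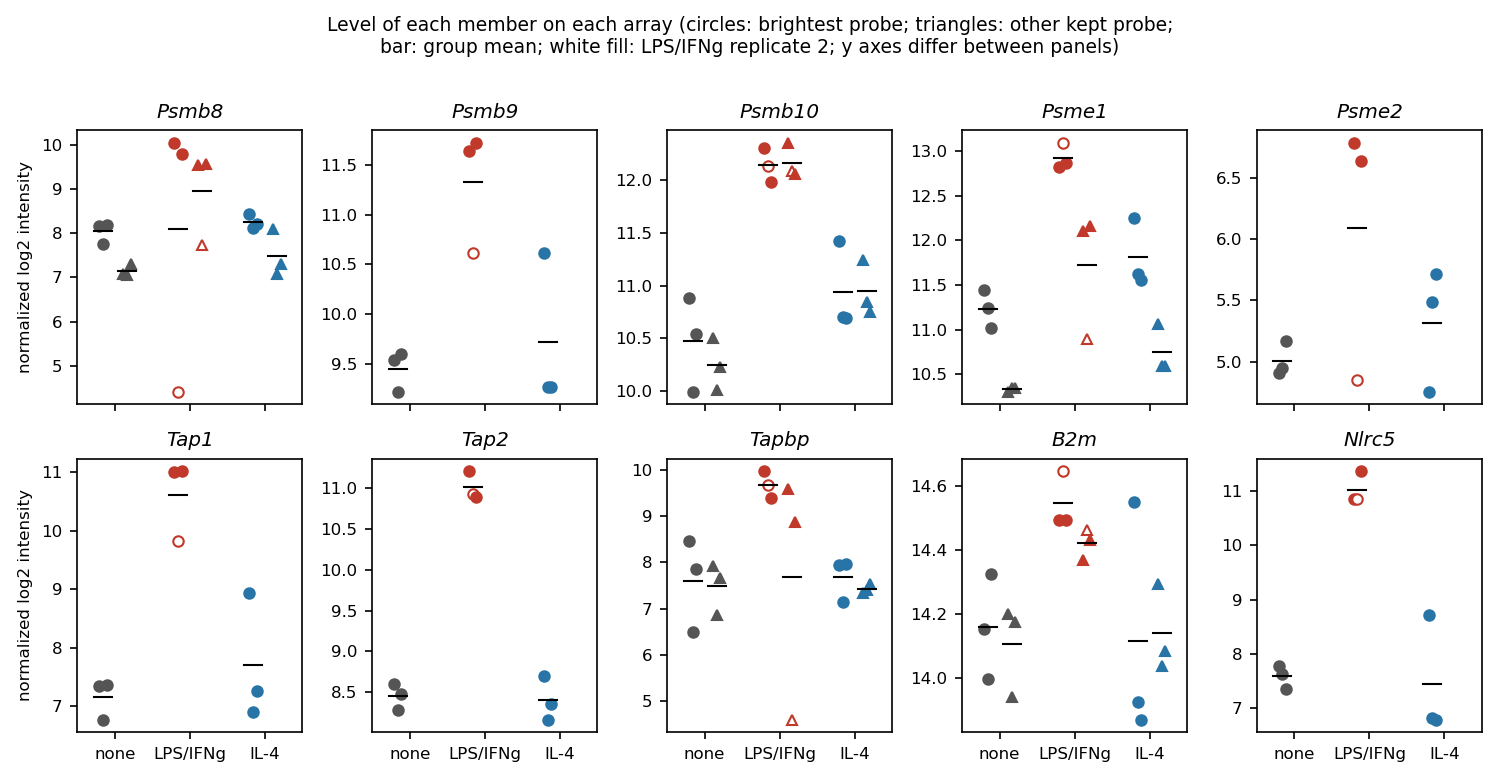
Normalized log2 intensity of each of the 10 genes on each of the 9 arrays, by group (none, no stimulus); circles are the brightest probe, triangles a second tested probe, bars group means, and the white symbol is LPS/IFNγ replicate 2. For Nlrc5, Tap1 and Tap2 all 3 LPS/IFNγ arrays lie above the other 6, while for Psmb8 and the second Tapbp probe the weak array lies at the bottom, at 4.42 and 4.59.

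Nlrc5, which drives transcription of class I genes and of several partners in peptide loading, stood at 7.77, 7.63 and 7.36 without stimulus and at 10.84, 10.85 and 11.36 with LPS/IFNγ. All 3 stimulated arrays, the weak one included, lay above all unstimulated ones. The rise was 3.43 ± 0.49 on the log2 scale (SE, n = 3 arrays per group, 10.8-fold, adjusted p = 0.00262, limma), the 99th largest among 9391 genes. With slide as a block it was 3.27 (adjusted p = 0.0285).

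Tap1 and Tap2 form the transporter that moves peptides from the cytosol into the endoplasmic reticulum. Tap1 measured 7.34, 6.76 and 7.37 without stimulus and 11.01, 9.83 and 11.02 with LPS/IFNγ. After normalization the weak array was the lowest of its group and still above every unstimulated array. The lowest detected level on the weak array, 7.34, lies just below the highest unstimulated value of 7.37. Detection alone therefore nearly set this order. Tap1 had the largest rise of the 10 genes, 3.47 ± 0.55 (SE, n = 3 per group, 11-fold, adjusted p = 0.00413, limma). Tap2 measured 8.61, 8.28 and 8.48 against 11.20, 10.92 and 10.89. The LPS/IFNγ arrays were all above the others by more than the spread within either group, and the rise of 2.55 ± 0.23 (SE, n = 3 per group, 5.85-fold) had the lowest adjusted p of the 10 genes, 0.000281 in limma. Both calls held with slide as a block, at adjusted p = 0.0367 for Tap1 and 0.0051 for Tap2, and with any 1 array left out.

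Tapasin, the product of Tapbp, bridges the transporter and the class I molecule and favours the binding of stable peptides. Its brightest probe (ILMN_3155492) gave 8.46, 6.49 and 7.86 without stimulus and 9.97, 9.68 and 9.38 with LPS/IFNγ. The groups did not overlap, although unstimulated replicate 2 was far below its group. The rise of 2.07 ± 0.49 (SE, n = 3 per group, adjusted p = 0.0217, limma) was no longer past the threshold without unstimulated replicate 3 (adjusted p = 0.0584), under a slide block (0.117) or without LPS/IFNγ replicate 1 (0.0605). The other Tapbp probe (ILMN_1226819) gave 7.91, 6.87 and 7.67 against 9.59, 4.59 and 8.87. It was not detected on the weak array, so that 4.59 is a background value. Over all arrays the second Tapbp probe differed by 0.20 ± 1.10 (SE, adjusted p = 0.916), and without the weak array by 1.75 ± 0.32 (adjusted p = 0.00333).

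The inducible catalytic subunits Psmb8, Psmb9 and Psmb10 take the places of Psmb5, Psmb6 and Psmb7 in newly built proteasomes and change where proteins are cut. Psmb9 stood at 9.54, 9.22 and 9.60 without stimulus and at 11.64, 10.62 and 11.72 with LPS/IFNγ, with no overlap. It rose by 1.88 ± 0.43 (SE, n = 3 per group, adjusted p = 0.0206, limma). The Psmb9 call depended on single arrays: leaving out unstimulated replicate 1, 2 or 3 gave adjusted p = 0.0641, 0.0775 and 0.0629, leaving out LPS/IFNγ replicate 1 or 3 gave 0.0591 and 0.0598, and slide as a block gave 0.117. Without the weak array Psmb9 rose by 2.23 (adjusted p = 0.00211).

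Psmb10 measured 10.88, 9.99 and 10.54 without stimulus and 12.30, 12.13 and 11.98 with LPS/IFNγ. All stimulated arrays were above all unstimulated ones on this probe and on the other. The rise was 1.67 ± 0.30 (SE, n = 3 per group, adjusted p = 0.00735, limma) on the first Psmb10 probe and 1.92 ± 0.24 (adjusted p = 0.00128) on the second. With slide as a block the first gave adjusted p = 0.0696 and the second 0.0177.

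The 2 probes of Psmb8 differed in the test. The brightest Psmb8 probe (ILMN_1226683) measured 8.17, 7.76 and 8.18 without stimulus and 10.04, 4.42 and 9.79 with LPS/IFNγ. The 4.42 is the weak array, where this probe was not detected, and the other LPS/IFNγ arrays lay above every unstimulated one. The difference over all arrays was 0.05 ± 1.27 (SE, adjusted p = 0.985, limma), with the sign turned under median centring, and without the weak array 1.88 ± 0.20 (adjusted p = 0.00019). The second Psmb8 probe (ILMN_2693940) measured 7.08, 7.05 and 7.31 against 9.54, 7.72 and 9.56. It was detected on the weak array, where every detected probe lies at 7.34 or above after normalization. The highest unstimulated value was 7.31, so that the lack of overlap on that array followed from detection alone. Over all arrays this probe rose by 1.80 ± 0.50 (SE, n = 3 per group, adjusted p = 0.0428, limma). A slide block ended that call (adjusted p = 0.13), as did leaving out any 1 of the 9 arrays other than the weak array and IL-4 replicate 1 (adjusted p from 0.0647 to 0.125).

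Psme1 and Psme2 encode the subunits of the ring-shaped activator that caps the proteasome and speeds the release of peptides. Psme1 measured 11.44, 11.24 and 11.02 without stimulus and 12.82, 13.09 and 12.86 with LPS/IFNγ, the weak array being the highest of all after normalization. Its deposited intensity on the weak array was 756.5, against 3377.6 to 3408.7 without stimulus. Neither of its probes overlapped between the groups. Psme1 rose by 1.69 ± 0.25 (SE, n = 3 per group, 3.23-fold, adjusted p = 0.00318, limma) on the first probe and by 1.39 ± 0.35 (adjusted p = 0.0278) on the second, where the weak array was the lowest of its group, at 10.90. With slide as a block the first probe kept its call (0.0356) and the second did not (0.101); the second also lost it without any 1 array other than the weak array and IL-4 replicate 1 (adjusted p from 0.0502 to 0.0928).

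Psme2 lay near the lowest detected level, at 4.91, 4.95 and 5.16 without stimulus and 6.78, 4.85 and 6.64 with LPS/IFNγ. Psme2 was not detected on the weak array, so that 4.85, which lies below all unstimulated values, is a background value. The other LPS/IFNγ arrays were above all unstimulated ones. The difference of 1.08 ± 0.50 (SE, n = 3 per group, 95% interval −0.06 to 2.23) did not pass the test (adjusted p = 0.192, limma). Without the weak array Psme2 rose by 1.70 ± 0.27 (adjusted p = 0.00156), and its partner Psme1 by 1.61 on the same arrays.

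B2m encodes β2-microglobulin, the invariant light chain of class I molecules. It measured 14.16, 14.00 and 14.33 without stimulus, 14.50, 14.65 and 14.50 with LPS/IFNγ and 14.55, 13.93 and 13.87 with IL-4. The LPS/IFNγ arrays were all above the unstimulated ones, on the second B2m probe as well. The difference was 0.39 ± 0.24 (SE, n = 3 per group, 95% interval −0.16 to 0.94, adjusted p = 0.324, limma) on the first probe and 0.32 ± 0.19 (adjusted p = 0.313) on the second, and neither passed without the weak array, at 0.305 and 0.226. Under median centring the sign of B2m turned, to −0.45. The transcript was among the brightest on every array: between 6 and 38 of the 16895 tested probes lay above it, and the top of the normalized scale was 15.23. How much the upper end of the scale limits a B2m difference was not tested.

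**Figure D2:**
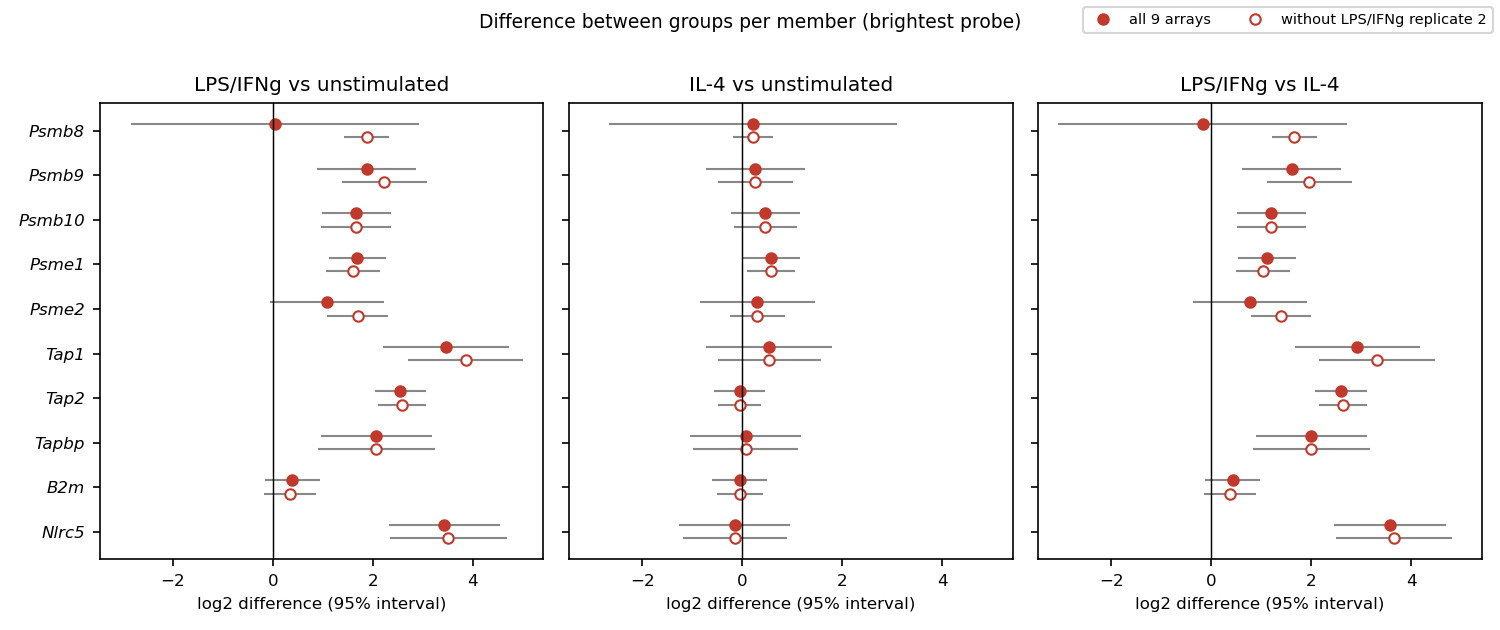
Log2 difference of each gene (brightest probe, x axis) with its 95% interval in the 3 comparisons, over all 9 arrays (filled) and without LPS/IFNγ replicate 2 (open). Against no stimulus, LPS/IFNγ gave intervals above 0 for 7 genes, Psmb8 moved from 0.05 to 1.88 when the weak array was left out, and the IL-4 differences lay between −0.15 and 0.58; under median centring over 9 arrays Psmb8 and B2m changed sign.

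The calls depended on how the arrays were scaled. Over 9 arrays, median centring in place of quantile normalization left 0 of the 10 genes past the test, with Nlrc5 at 2.13 ± 1.19 and Tap1 at 2.18 ± 1.40 (SE, adjusted p = 0.291 and 0.341, limma). It also moved the median of all probes to −0.83 on the log2 scale, from −0.22 under quantile normalization. Without the weak array median centring put the median at −0.21 and 9 of the 10 genes rose, Nlrc5 by 3.66 and Tap1 by 4.04. With slide as a block, 4 genes kept their call over all 9 arrays: Nlrc5, Tap1, Tap2 and Psme1. Slide 2 holds 1 LPS/IFNγ array and all 3 unstimulated ones. Within it all 10 genes were higher with LPS/IFNγ, by 0.34 (B2m) to 3.87 (Tap1) on the log2 scale; these are values of a single stimulated array, whose own spread is not measured there.

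Whether the inducible subunits changed by more than the constitutive ones they replace was examined as the difference between the 2 probes on each array. Psmb5, Psmb6 and Psmb7, the constitutive catalytic subunits, did not pass the test over 9 arrays, with log2 differences of −1.13 ± 1.05, 0.33 ± 0.37 and 0.51 ± 0.26 (SE, adjusted p = 0.504, 0.586 and 0.235, limma). Psmb5 was not detected on the weak array. Without that array Psmb6 and Psmb7 rose, by 0.77 and 0.77 (adjusted p = 0.0171 and 0.00843), and Psmb5 measured 0.40 (0.085).

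Psmb9 minus Psmb6 was −1.44, −2.22 and −1.5 without stimulus and −0.37, 0.01 and −0.15 with LPS/IFNγ, a shift of 1.55. Psmb10 minus Psmb7 was 0.31, −0.36 and 0.30 against 1.09, 1.75 and 0.88, a shift of 1.16. In both pairs the groups did not overlap. Psmb8 minus Psmb5 shifted by 1.17, from −0.33, −0.87 and −0.24 to 1.14, 0.07 and 0.87, but neither probe was detected on the weak array, and without it the shift was 1.48. Each of these 3 shifts had an exact two-sided permutation p of 0.1, the smallest that 3 against 3 allows. The other 3 Psmb7 probes differed by −1.13, −0.80 and −0.49 over 9 arrays, against 0.51 for the probe used here, and did not pass the test. IL-4 against no stimulus gave pair shifts of 0.38 for Psmb8, 0.09 for Psmb9 and 0.40 for Psmb10, with overlapping groups and exact permutation p of 0.2, 0.9 and 0.5 (3 arrays per group). Taken within equal replicate numbers, the IL-4 shifts were 0.46, 0.57 and 0.10 for Psmb8, 0.91, 0.09 and −0.72 for Psmb9, and 0.58, 0.62 and 0.002 for Psmb10. They were above 0 in 3 of 3 pairs for Psmb8 and Psmb10 and in 2 of 3 for Psmb9, with exact two-sided sign-flip p of 0.25, 0.25 and 0.75, where 0.25 is the smallest that 3 pairs allow.

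**Figure D3:**
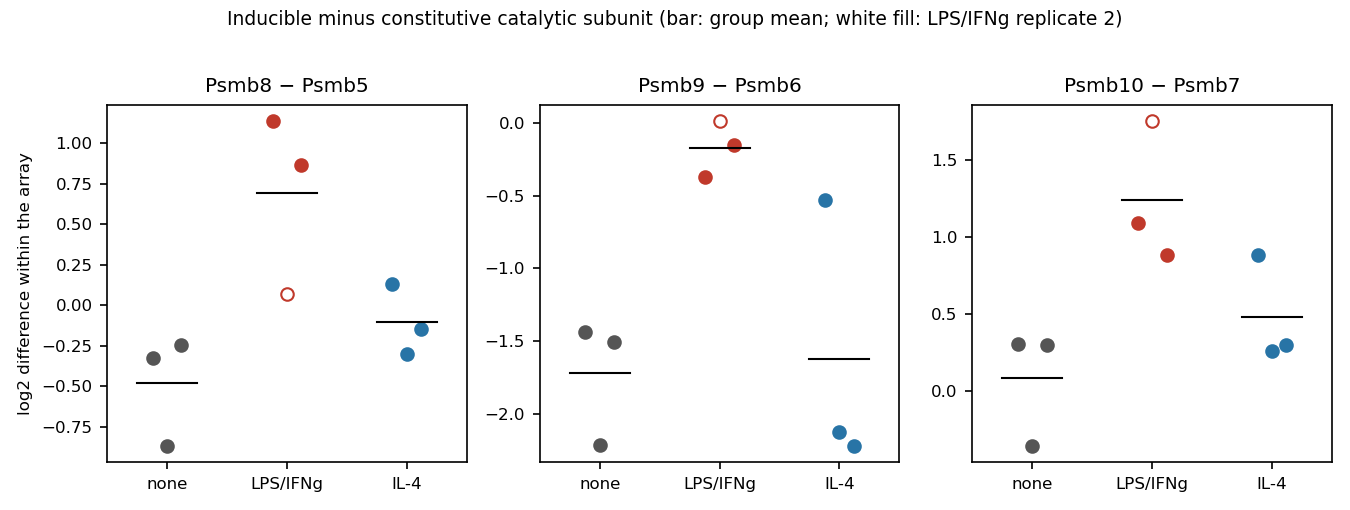
Log2 level of the inducible subunit minus that of its constitutive counterpart on each array, by group, with group means as bars and LPS/IFNγ replicate 2 in white. In each pair the 3 LPS/IFNγ arrays lie above the 3 unstimulated arrays, with mean shifts of 1.17, 1.55 and 1.16.

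IL-4 was compared with no stimulus to ask whether the same genes respond to a cytokine of alternative activation. None of the 10 passed the test: 0 rose and 0 fell, where 0.0533% of all probes were higher and 0.00592% lower (limma, adjusted p under 0.05). At an unadjusted p under 0.05 there was 1 gene, Psme1 (0.0497, limma). The share of all genes past that threshold was not counted, so nothing is read from this count. The log2 differences of the 10 genes ran from −0.15 to 0.58 with a median of 0.24, against 0.01 over all genes measured. The model takes its spread from all groups, so the weak LPS/IFNγ array also widens IL-4 intervals. For Psmb8 the SE was 1.27, while the SD was 0.24 without stimulus and 0.16 with IL-4. Without the weak array none of the 10 passed either, where 0.26% of all probes were higher and 0.0474% lower.

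The IL-4 arrays were uneven, and not only for these genes. Across all tested probes IL-4 replicate 1 correlated with the other IL-4 arrays at r = 0.952 and 0.957, against 0.986 between these. IL-4 replicate 1 was the highest of its group for 8 of the 10 genes. The share of all genes for which it was the highest was not counted. Tap1 measured 8.93, 6.90 and 7.27 on the IL-4 arrays and Nlrc5 8.71, 6.83 and 6.79. On both genes replicate 1 lay above all unstimulated arrays while the other IL-4 arrays lay within or below their range. Psmb9 showed the same order, at 10.61, 9.27 and 9.27. Without IL-4 replicate 1, Tap1 measured −0.08 and Psmb9 −0.18 relative to no stimulus, against 0.54 and 0.27 with it.

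Psme1 and Psmb10 came nearest to a difference with IL-4. Psme1 measured 12.25, 11.62 and 11.55 with IL-4 and did not overlap with the unstimulated arrays on either probe, with a log2 difference of 0.58 ± 0.25 (SE, n = 3 per group, unadjusted 95% interval 0.001 to 1.15, adjusted p = 1, limma). The second Psmb10 probe did not overlap either, at 11.25, 10.85 and 10.75 against 10.50, 10.01 and 10.23, a difference of 0.70 ± 0.24 (adjusted p = 0.935). The brightest Psmb10 probe did overlap, at 11.42, 10.70 and 10.69 against 10.88, 9.99 and 10.54, a difference of 0.47 ± 0.30. The share of all probes without overlap was not counted. For the transporter and the transactivator the unadjusted 95% intervals were −0.71 to 1.80 for Tap1, −0.56 to 0.47 for Tap2 and −1.26 to 0.97 for Nlrc5. The LPS/IFNγ rises of 3.47 for Tap1, 2.55 for Tap2 and 3.43 for Nlrc5 lie outside these unadjusted IL-4 intervals.

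Set directly against IL-4, LPS/IFNγ again gave 7 genes higher and 0 lower, and all 7 were among those that rose against no stimulus, where 4.84% of all probes were higher and 9.74% lower. Both comparisons share the LPS/IFNγ arrays. Nlrc5 was higher by 3.58 ± 0.49, Tap1 by 2.92 ± 0.55 and Tap2 by 2.60 ± 0.23 (SE, n = 3 per group, adjusted p = 0.0022, 0.00926 and 0.000254, limma). These 3 kept their call with any 1 array left out and with slide as a block. Tapbp was higher by 2.00, Psmb9 by 1.61, Psmb10 by 1.20 and Psme1 by 1.12 (adjusted p = 0.0263, 0.0403, 0.0313 and 0.0195), and all 4 of these calls were lost without IL-4 replicate 2 or without IL-4 replicate 3, which left 3 genes. Without LPS/IFNγ replicate 1 there were 4 genes, without LPS/IFNγ replicate 3 or unstimulated replicate 3 there were 5, without unstimulated replicate 1 or 2 or IL-4 replicate 1 there were 6, with slide as a block 6 and without the weak array 9. Within slide 1, which holds 2 IL-4 arrays, the weak array and 1 other LPS/IFNγ array, no gene passed (0 of 10). Slide 2 holds 1 array of each stimulus, which allows no test of their spread; there all 10 genes were higher with LPS/IFNγ, by 0.63 (B2m) to 4.58 (Nlrc5) on the log2 scale.

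The neighbouring steps of the class I pathway were described with 6 gene lists. Of 10 class I heavy chains and class I-like molecules measured, 1 rose with LPS/IFNγ against no stimulus, H2-T10, a nonclassical class I molecule, by 2.84 ± 0.48 (SE, adjusted p = 0.00548, limma). H2-T10 measured 6.31, 5.99 and 6.34 without stimulus and 9.09, 9.16 and 8.93 with LPS/IFNγ, without overlap. On the weak array every detected probe lies at 7.34 or above, so that the lack of overlap there followed from detection. The classical heavy chain H2-K1 measured 1.58 ± 0.48 (adjusted p = 0.06), and H2-Q6 and H2-Q7, class I molecules of the Q region, 2.85 ± 0.91 and 1.78 ± 0.66 (adjusted p = 0.068 and 0.11). The median of the list was 1.36. Without the weak array 7 of the 10 rose, H2-Q6 by 3.75 and H2-Q7 by 2.34 (adjusted p = 0.00415 and 0.014) among them, and with slide as a block over 9 arrays 0 did. Leaving out IL-4 replicate 1 gave 4. Class I genes are near-identical in sequence, so a probe may bind more than 1 of them, and these values are uncertain as to the gene.

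In the endoplasmic reticulum, Tapbpl, a tapasin-related peptide editor, rose by 2.34 ± 0.33 (SE, adjusted p = 0.00238, limma), also with slide as a block (0.027), as 1 of 5 genes measured. Pdia3, which works with tapasin in the loading complex, measured −0.89 ± 0.47 (adjusted p = 0.251), the general chaperone Hspa5 0.19 ± 0.47 (0.813), and the trimming peptidase Erap1 0.56 ± 0.32 (0.284). Leaving out the weak array, 2 of the 5 rose, Tapbpl by 2.49 and Erap1 by 0.82 (adjusted p = 0.000498 and 0.0457). Over 9 arrays none of 3 constitutive subunits (0) and none of 6 further activators and assembly factors (0) passed. Among the latter the signs were mixed, with a median of −0.12. Psme3, another proteasome activator, measured 0.53 ± 0.25 (adjusted p = 0.194) and Pomp, which helps assemble the inducible proteasome, 0.52 ± 0.26 (0.226). The assembly chaperones Psmg1 and Psmg2 measured −1.14 ± 0.56 (0.213) and −0.73 ± 0.70 (0.519). Psmg1 stood at 6.95, 6.96 and 7.12 without stimulus and at 6.80, 4.34 and 6.45 with LPS/IFNγ, without overlap, and 4.34 is the weak array, where it was not detected. Without that array Psmg1 measured −0.38 and Psmg2 0.27 (adjusted p = 0.138 and 0.282), and 1 of the 6 rose, Psmg3, another of these chaperones, by 0.63 (0.0185), against −0.39 over 9 arrays (0.743).

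Of 6 cytosolic peptidases and ubiquitin-like modifiers 3 rose. They were Isg15, a ubiquitin-like protein, by 4.08 ± 0.94, Usp18, which removes it from its targets, by 3.98 ± 0.80, and Ube2l6, an enzyme that conjugates it, by 1.92 ± 0.44 (SE, adjusted p = 0.0196, 0.0112 and 0.0196, limma). The 3 belong to the Isg15 system, and none of them trims peptides for class I. With slide as a block none of the 3 passed (0.0935, 0.0878 and 0.123). The count depended on single arrays: it was 1 of 6 without unstimulated replicate 2, 1 without unstimulated replicate 3 and 4 without the weak array, where Ubd, a ubiquitin-like modifier that targets proteins to the proteasome, joined them at 0.91 (adjusted p = 0.00319), against 0.57 ± 0.30 over 9 arrays (0.247). With no filter on dim probes it was 1. Ube2l6 was not detected on the weak array, so that its 7.01 there is a background value. Of 11 transcriptional regulators 1 rose, Irf1, an interferon-induced activator of class I genes, from 10.69, 10.17 and 10.42 to 13.61, 13.91 and 13.72. Irf1 rose by 3.33 ± 0.37 (SE, 10-fold, adjusted p = 0.000791) and kept the call with slide as a block (0.0106), while Stat2, a signal transducer of interferon receptors, measured 2.00 ± 0.59 (adjusted p = 0.0534). Irf8, a macrophage transcription factor, and Irf9, a subunit of an interferon-activated complex, measured 0.53 ± 0.31 and 0.46 ± 0.29 (0.291 and 0.335). On the 8 other arrays 3 of the 11 rose: Irf1, Stat2 by 2.30 and Relb, a subunit of NF-kB, by 1.48 (adjusted p = 0.0168 and 0.00791). Without IL-4 replicate 1 or IL-4 replicate 2 there were 2. Under median centring over 9 arrays 0 genes of the 6 lists passed. With IL-4 against no stimulus 0 genes of these 6 lists passed. With LPS/IFNγ against IL-4 the calls also took in Cd1d1, which presents lipids, and Irf8, by 1.40 and 1.38 (adjusted p = 0.0184 and 0.0188, limma). Ube2l6 was not among them (0.0643). Relative to no stimulus Cd1d1 measured 0.05 with LPS/IFNγ and −1.35 with IL-4, and Irf8 0.53 and −0.85, none past the test. Cd1d1 was not detected on the weak array, its highest LPS/IFNγ value, nor on IL-4 replicate 1. Against IL-4 2 heavy chains and class I-like molecules, 2 modifiers and 2 regulators were higher. Leaving out 1 array other than the weak one gave 1 to 2, 0 to 2 and 1 to 2, and leaving out the weak array 6, 4 and 4.

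**Figure D4:**
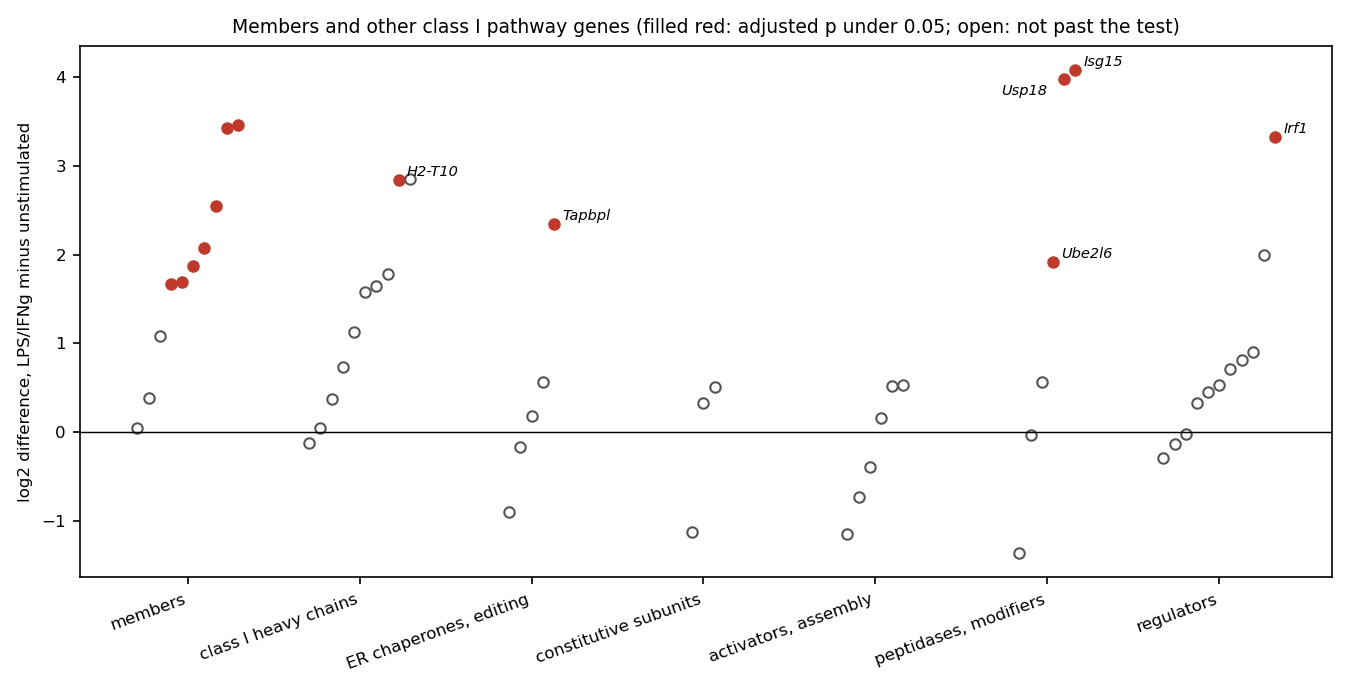
Log2 difference between LPS/IFNγ and no stimulus over 9 arrays (y axis) for the 10 genes and the 6 neighbouring lists, 1 point per gene (brightest probe), filled red where the adjusted p was under 0.05. Of the 10 genes 7 are filled, against 1 of 10 heavy chains, 1 of 5 chaperones and editors, 0 of 3 constitutive subunits, 0 of 6 activators and assembly factors, 3 of 6 peptidases and modifiers and 1 of 11 regulators; under median centring over 9 arrays no member passes. The contrast depends on the weak array: without it 9 of the 10 genes, 7 of the 10 heavy chains and the constitutive Psmb6 and Psmb7 rose.

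The 10 genes did not vary together to the same degree. Each gene was set against the mean of the 10 standardized profiles, of which it is itself a part, over 9 arrays that share 3 group means and 2 slides. Tap1 followed it most closely, with r = 0.994, then Psmb9 with 0.983, Psmb10 and Tap2 with 0.95 each, Nlrc5 with 0.947, Psme1 with 0.902 and Tapbp with 0.90. B2m stood at 0.782, Psme2 at 0.673 and Psmb8 at 0.253. Without the weak array Psmb8 came to 0.986 and Psme2 to 0.813, while B2m stayed at 0.777. Outside all lists used here, the genes with the most similar profile over 9 arrays were BC147527 (r = 0.992), Carhsp1 (0.991), Mapk1ip1l (0.989), Ifi211, an interferon-activated gene (0.989), and Cmtr1, an mRNA cap methyltransferase (0.987), with differences between LPS/IFNγ and no stimulus of 3.07, 1.55, 1.14, 2.18 and 1.5 on the log2 scale. They were chosen by this correlation, which is a description of these arrays.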

How the data were processed

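Biotin-labelled cRNA from TRIzol-extracted RNA was hybridised to Illumina bead arrays, per the labels' protocols. The authors deposited, per the file headers and the values, 1 intensity on a linear scale per probe and array, with neither background subtraction nor scaling, and a detection p-value beside it. The deposited second table holds log2 values: a test on the intensities showed quantile-normalized signals plus a per-probe shift of 0.5 times a slide coefficient (correlation 1), so it served as an alternative only. Partek is named in the submitters' processing notes, with no role. The array identifiers give the slide: slide 1 carried IL-4 and LPS/IFNγ replicates 1 and 2, slide 2 the other arrays.

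From the deposited intensity, limma 3.58.1 (R 4.3.3) removed background by normexp, whose parameters came from detection p-values, with an offset of 16; log2 values were then quantile-normalized. Probes detected at p under 0.05 on at least 3 of 9 arrays were kept (16895). A first run normalized before taking log2; the order was changed after its results were seen, and the first order is kept as an alternative. Groups were compared in 1 linear model of 3 groups with limma's moderated test, adjusted by Benjamini-Hochberg over all kept probes, threshold 0.05; the code was tested on simulated data. Subunit pairs were compared with an exact two-sided permutation test, and for IL-4 also within equal replicate numbers by an exact sign-flip test, added after seeing the data. Cd1d1, Psmg3 and Relb are named for a call in another comparison or without 1 array.

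Of all probes 34885 carry 1 gene symbol, 18 several and 10378 none; 34807 of the first were found in the reference genes by their gene number. The members and all gene lists were chosen with earlier results of these data known. The text names all members, the 4 genes of each list with the lowest adjusted p in LPS/IFNγ against no stimulus, the 3 constitutive subunits, and the 5 genes outside the lists most correlated with the members' mean profile.

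Equal replicate numbers were checked as pairs by the correlation of deviations from group means: for IL-4 and unstimulated arrays it was 0.366, 0.427 and 0.30, all above 0.1, so the numbers were treated as pairs there, from the data only; in the comparisons with LPS/IFNγ it lay between −0.115 and 0.068. Alternatives were no background correction, median centring, the deposited table, other filters, slide and replicate blocks, within-slide fits, array weights, undetected values raised to the lowest detected one, and leaving out each array; those that combine a choice with leaving out LPS/IFNγ replicate 2 were chosen after seeing the data. The number of arrays limits the precision.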

Additional observations from a re-analysis of the deposited data

How the results depend on the processing

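The count of member genes higher with LPS/IFNγ than without stimulus was 7; it was 0 under median centring, 4 with slide as a block, and 5 to 9 with 1 array left out. Against IL-4 the count was also 7; it was 0 under median centring, 4 with no filter on dim probes, 0 within slide 1, and 3 to 9 with 1 array left out. The other alternatives gave 5 to 9 and 6 to 10 genes, of which the 8 and 6 within slide 2 rest on single stimulated arrays and take their spread from the 3 unstimulated arrays alone. With the replicate block the counts were 7, 0 and 7, and this fit changed no call of a gene's brightest probe. The block spans all 9 arrays, although equal numbers showed no pairing with LPS/IFNγ, so it does not test the IL-4 pairing alone. Pair shifts within equal replicate numbers averaged 0.38, 0.09 and 0.40 for IL-4, as without pairing. No member fell under any alternative run. For IL-4 against no stimulus the count was 0 under every alternative run. Normalizing before taking log2, the order used first, gave 7, 0 and 7.

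Signs turned only in differences that had not passed the test or under median centring over 9 arrays. Under median centring LPS/IFNγ against no stimulus gave Psmb8 −0.067 and B2m −0.45, against IL-4 Psmb10 −0.12, Psme1 −0.18 and B2m −0.49, and IL-4 against no stimulus Tap2 0.013 and B2m 0.043 (the same without LPS/IFNγ replicate 2). With 1 array left out, Psmb8 ran from −0.93 to 1.88 against no stimulus and from −1.15 to 1.66 against IL-4, where its main value of −0.18 became 0.29 without background correction, 0.29 in the deposited table, 1.58 within slide 2, 1.66 with array weights and 0.80 with undetected values raised. Combined with leaving out LPS/IFNγ replicate 2, Psmb8 against IL-4 was 1.60 under median centring, 1.68 with slide as a block and 1.66 with no filter. For IL-4 against no stimulus, leaving out 1 array gave Psmb9 −0.18 to 0.49, Tap1 −0.075 to 0.94, Tap2 −0.19 to 0.076, Tapbp −0.49 to 0.50, B2m −0.26 to 0.079 and Nlrc5 −0.78 to 0.18. Psmb9 was −0.18 within slide 2 and −0.091 with array weights, and Tapbp −0.021 in the deposited table and −0.11 with array weights. Psmb9 minus Psmb6 for IL-4 against no stimulus was −0.18 in the deposited table and −0.46 to 0.39 with 1 array left out.

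LPS/IFNγ replicate 2 detected the fewest probes, and a gene not detected there has only a background value on that array; beyond these values the cause of the changes was not tested. Unstimulated arrays all lie on slide 2, and a slide block rests on the 4 arrays of slide 1 and the 2 stimulated arrays of slide 2 for its estimate. Psme2 lies near the detection limit and B2m near the top of the scale, which limits both.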
